A study of Mus musculus with 5 samples.

Results

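The 10 genes described here encode the contractile machinery that mammary myoepithelial cells share with smooth muscle: Acta2, Actg2, Tagln, Myh11, Mylk, Myl9, Cnn1, Tpm1, Tpm2 and Oxtr. They were chosen by symbol from 24347 symbols, and the FPKM values (fragments counted per transcript, scaled to its length and to sequencing depth) of all transcripts of a symbol were added within each library. The study compared cells sorted from mammary precancerous lesions of MMTV-Wnt-1 transgenic mice on a mixed FVB, SJL and C57BL/6 background, and its stated question was how expression differed between the sorted populations. All libraries carried the Wnt-1 transgene, which the MMTV LTR drives in the mammary epithelium. The 2 Krt6a+ libraries, numbered 2 and 3, came from keratin 6a positive cells that the submitters call precancerous stem cells, and the 3 WAP+ libraries, numbered 1 to 3, from cells positive for whey acidic protein, a milk protein of differentiated mammary cells. Every library was amplified from a small number of cells that had been sorted by TVA, a receptor for avian viruses, detected with an antibody. The labels give no age of the mice, do not say how TVA marked each population, and do not say that libraries came from separate animals.

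Myoepithelial cells lie at the base of the mammary epithelium and squeeze milk out of the alveoli when oxytocin binds its receptor. Calcium released in the cell binds calmodulin, which switches on myosin light chain kinase. The kinase phosphorylates the regulatory light chain of smooth muscle myosin, which then pulls on filaments of smooth muscle actin coated with tropomyosin and calponin. Most of these genes are switched on by serum response factor (SRF) together with myocardin family coactivators, through a short promoter element called the CArG box. Basal keratins such as Krt5 and Krt14 are commonly made by the same cells.

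The libraries matched their labels in the genes that name them. Krt6a had FPKM 1380 and 1133 in Krt6a+ libraries 2 and 3 against 168, 50.0 and 120 in WAP+ libraries 1, 2 and 3, and it differed by 3.50 on the log2 scale (limma adjusted p = 0.0383). That call was lost without any 1 WAP+ library (adjusted p 0.133, 0.146 and 0.165) or without Krt6a+ library 2 (adjusted p = 0.0573). It was also lost with a pseudocount of 0.1 (adjusted p = 0.0619), no level filter (0.159), no variance trend (0.0776) and the highest row per symbol (0.0632). Wap was listed at 0 in both Krt6a+ libraries and had FPKM 50.1, 126 and 13.9 in the WAP+ libraries. Between 8112 and 8900 genes reached FPKM 1 in a library, and read totals were not used here. The Krt6a+ libraries were less alike than the WAP+ ones. Over 5334 genes, Spearman's rho was 0.743 between the Krt6a+ libraries and 0.843 to 0.849 between WAP+ libraries. With WAP+ libraries 1, 2 and 3, rho was 0.761, 0.706 and 0.750 for Krt6a+ library 3 and 0.714, 0.696 and 0.716 for Krt6a+ library 2. Krt6a+ library 3 held more of the luminal keratin Krt8, at FPKM 719 against 66.2 in Krt6a+ library 2 and 1664 to 1917 in the WAP+ libraries. An exact 0 can be a failed estimate in these tables, since Eno1 and Rpl10, which nearly every cell uses, were at 0 in all 5 libraries and Gapdh in 3, so a member is then said to be listed at 0.

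The 10 contractile genes did not move as a block. Acta2 and Tagln were lower in both Krt6a+ libraries than in every WAP+ library, and Tpm1 was higher in both. Myl9 was above 0 in every WAP+ library and listed at 0 in both Krt6a+ libraries, where the zeros can be failed estimates. Cnn1 and Tpm2 overlapped between the populations. These 6 had FPKM 1 or more in at least 2 libraries and were tested, and Actg2, Myh11, Mylk and Oxtr were not. Differences are of log2(scaled FPKM + 1), Krt6a+ minus WAP+, from a limma fit over 9682 genes with Benjamini-Hochberg adjustment. At an adjusted p under 0.05, 0 of the 6 members passed, beside 0.692% of all tested genes (67 of 9682, with 0.258% higher and 0.434% lower in Krt6a+). At an unadjusted p under 0.05, 3 members were lower as listed (Acta2, Tagln and Myl9), beside 9.45% of all tested genes. At that p, 1 was higher, beside 7.66%. The same 3 and 1 had groups that did not overlap, beside 15.0% of tested genes for Krt6a+ lower and 19.0% for Krt6a+ higher. Acta2 and Myl9 passed the level filter only through the WAP+ libraries, where they are high, and Cnn1 only through WAP+ libraries 2 and 3. Tagln would have passed on the WAP+ libraries alone. The count of 3 and the p-values and ranks of these genes are therefore only a description of them. Of all 10 members, 6 were above 0 in each Krt6a+ library and 8, 8 and 9 in the WAP+ libraries. At FPKM 1 or more there were 2 and 3 members in the Krt6a+ libraries against 5, 6 and 8 in the WAP+ libraries.

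**Figure D1:**
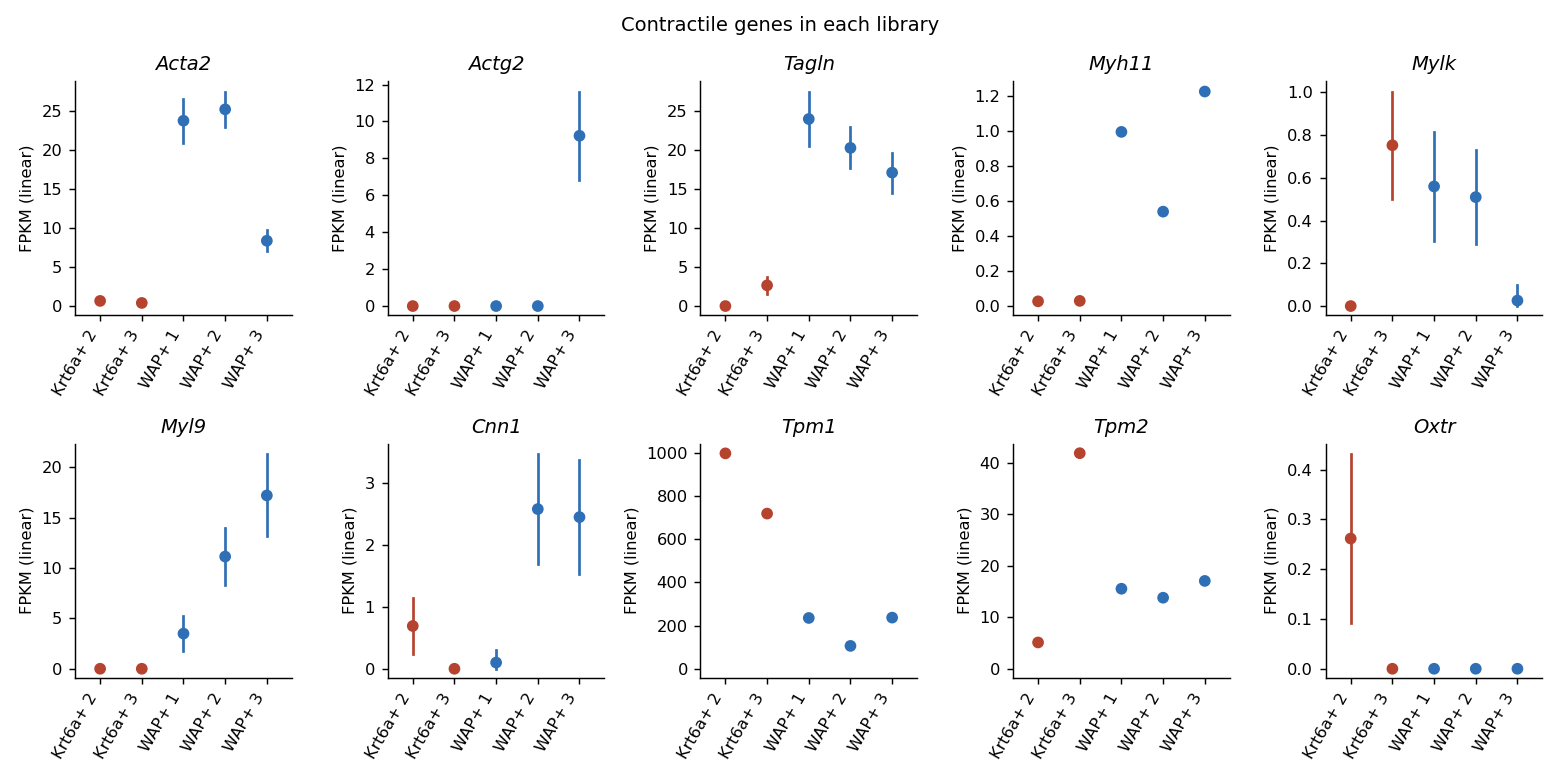
FPKM of each of the 10 contractile genes (linear vertical axes, one panel a gene) in Krt6a+ libraries 2 and 3 (red) and WAP+ libraries 1 to 3 (blue); vertical lines are the deposited 95% bounds, drawn for genes with a single transcript. Acta2, Tagln, Myl9 and Myh11 sit lower in both Krt6a+ libraries, Tpm1 sits higher in both, and the other 5 panels overlap.

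Acta2, the smooth muscle actin that is the usual marker of myoepithelium, lies on chromosome 19 (mm10, chr19:34240336-34255373). Its FPKM was 0.658 and 0.398 in Krt6a+ libraries 2 and 3 against 23.7, 25.2 and 8.36 in WAP+ libraries 1, 2 and 3. Both Krt6a+ libraries were below every WAP+ library, and the upper 95% bounds in Krt6a+ (1.04 and 0.754) were below the lowest lower bound in WAP+ (6.99). Scaled means were 0.512 ± 0.225 (SD, n = 2) in Krt6a+ against 19.4 ± 9.15 (SD, n = 3) in WAP+. The log2 difference was -3.64 ± 0.67 (moderated SE), 12.5-fold lower on the log2(scaled FPKM + 1) scale, which understates the change of low genes. Its size depends on the pseudocount, at -4.91 with 0.1 and -2.07 with 5 in place of 1. It did not pass (limma adjusted p = 0.0547, unadjusted p = 0.000628) and ranked 62 from the lowest difference among 9682 genes. Leaving out genes under FPKM 5, a filter that Acta2 met through the WAP+ libraries alone, brought the adjusted p to 0.0417. In a pool of sorted cells, fewer cells that make Acta2 and less Acta2 RNA per cell cannot be told apart.

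Actg2, the gamma smooth muscle actin, lies on chromosome 6 (chr6:83512909-83536251). It was listed at 0 in both Krt6a+ libraries and in WAP+ libraries 1 and 2, and had FPKM 9.23 (95% bounds 6.84 to 11.6) in WAP+ library 3. The 4 zeros had 95% bounds of 0 and can be failed estimates, so only WAP+ library 3, which had the lowest Acta2 of the 3 WAP+ libraries, gives a level for it. The cytoplasmic actin Actb, present in all cells, had FPKM 589 and 640 in Krt6a+ against 650, 754 and 966 in WAP+ (limma adjusted p = 0.58). Acta2 made 0.106% and 0.0540% of the summed FPKM of 6 actin genes in the Krt6a+ libraries against 3.21%, 2.98% and 0.821% in the WAP+ libraries. Even where it was highest, smooth muscle actin was thus a small part of the actin message.

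Tagln encodes transgelin (SM22), an actin-binding protein of smooth muscle, and lies at chr9:45929628-45936058. Its FPKM was listed at 0 (upper 95% bound 0.162) in Krt6a+ library 2 and was 2.65 (1.58 to 3.72) in Krt6a+ library 3, against 24.0, 20.3 and 17.1 in WAP+ libraries 1, 2 and 3. The WAP+ libraries were close to each other, at a scaled mean of 21.0 ± 1.36 (SD, n = 3), and all lay above Krt6a+. The log2 difference was -3.58 ± 0.68 (limma adjusted p = 0.0574), rank 67 from the lowest. It was -5.41 with a pseudocount of 0.1 and -2.10 with 5. It came to -4.41 without Krt6a+ library 3 (adjusted p = 0.0237) and -2.71 without Krt6a+ library 2 (adjusted p = 0.0884). Its broadly expressed relative Tagln2 had FPKM 171 and 317 in Krt6a+ against 352, 115 and 237 in WAP+, with a log2 difference of 0.01 (adjusted p = 0.995). Tagln made 0% and 0.829% of the FPKM of the 3 transgelin genes in the Krt6a+ libraries against 6.38%, 15.0% and 6.73% in the WAP+ libraries.

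Cnn1, the calponin of smooth muscle, lies on the same chromosome at chr9:22099253-22109221. It had FPKM 0.689 in Krt6a+ library 2 and was listed at 0, with 95% bounds of 0, in Krt6a+ library 3. In the WAP+ libraries it had FPKM 0.0998, 2.57 and 2.44. The groups overlapped, because WAP+ library 1 was below Krt6a+ library 2. The log2 difference was -0.94 ± 0.75 (limma adjusted p = 0.565). The calponins Cnn2 and Cnn3, which many cells express, were at FPKM 18.2 and 4.84 (Cnn2) and 29.4 and 59.9 (Cnn3) in the Krt6a+ libraries, far above Cnn1 per length.

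Myl9, the regulatory light chain of smooth muscle myosin, lies at chr2:156775464-156781657. It was listed at 0 in both Krt6a+ libraries, with deposited 95% bounds that were also 0, and had FPKM 3.49, 11.1 and 17.2 in WAP+ libraries 1, 2 and 3. Those zeros can be failed estimates, so no Krt6a+ level of Myl9 is known. No fold or log2 difference is given against values listed at 0, since its size would be set by the pseudocount, and the limma adjusted p was 0.103. Its near relatives Myl12a and Myl12b, which serve non-muscle myosin, were abundant in every library. Myl12a had FPKM 187 and 226 in Krt6a+ against 317, 284 and 231 in WAP+ (log2 difference -0.54, adjusted p = 0.441). Myl9 made 0% of the FPKM of these 3 regulatory light chains in both Krt6a+ libraries against 0.679%, 2.19% and 3.74% in the WAP+ libraries. Reads from stretches that such relatives share could have been assigned to either gene, and how the authors' tools treated them is not stated in the labels.

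Myh11, the heavy chain of smooth muscle myosin, lies on chromosome 16 (chr16:14194527-14291408). It had FPKM 0.0270 and 0.0296 in the Krt6a+ libraries against 0.997, 0.540 and 1.23 in the WAP+ libraries. All Krt6a+ values were lower, but the gene was under the level filter, and without that filter the limma adjusted p was 0.387. Myh11 made 0.133% and 0.141% of the FPKM of 4 class II myosin heavy chains in Krt6a+ against 5.98%, 2.63% and 4.92% in WAP+. Mylk, the kinase of the light chain (chr16:34784950-35002434), was listed at 0 in Krt6a+ library 2, with 95% bounds of 0. It had FPKM 0.753 in Krt6a+ library 3 against 0.560, 0.510 and 0.0256 in WAP+. Its groups overlapped, with the highest value in a Krt6a+ library, and it too was under the filter. Where it was above 0, the kinase was thus under FPKM 1, while its substrate Myl9 reached 17.2.

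**Figure D2:**
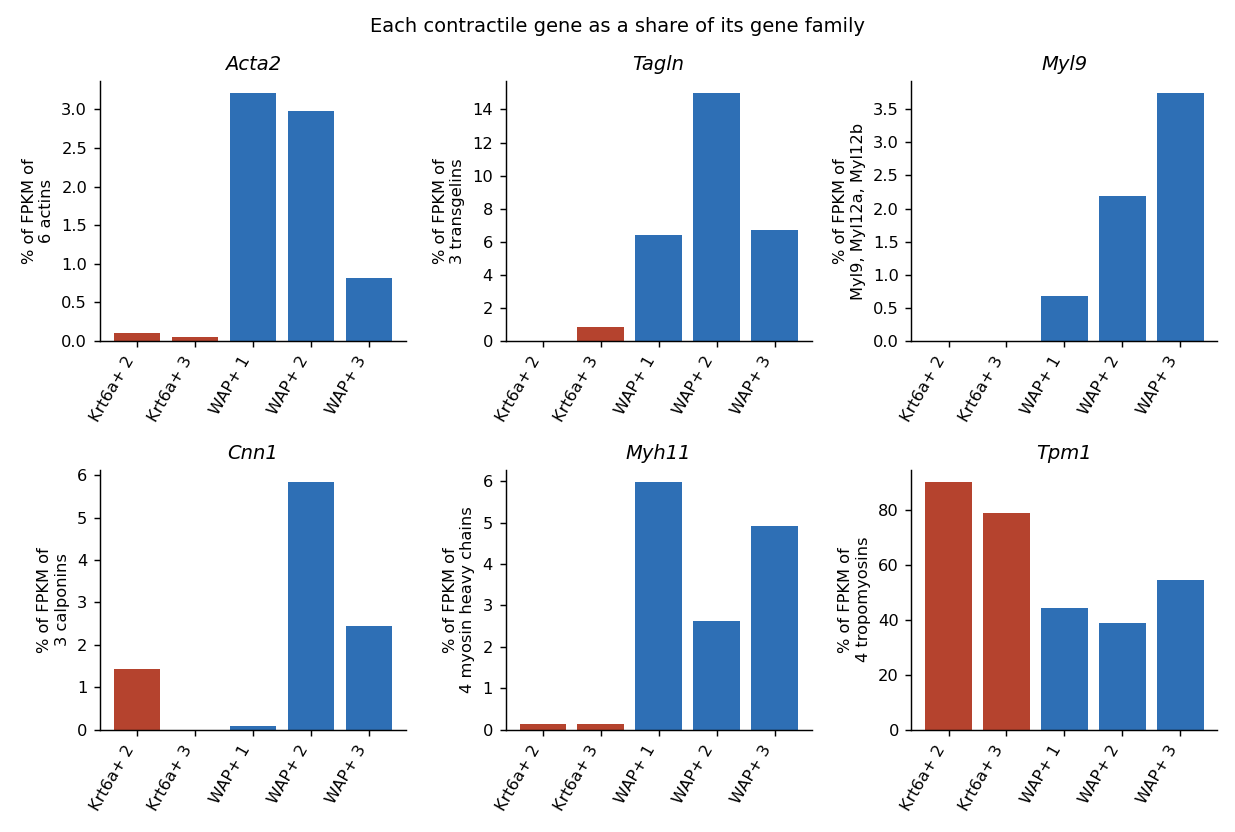
Share of each smooth muscle member in the summed FPKM of its gene family (percent, vertical axis from 0) in Krt6a+ libraries (red) and WAP+ libraries (blue). Tpm1 held 79.2% or more of tropomyosin FPKM in Krt6a+ and at most 54.6% in WAP+. Acta2, Tagln and Myh11 held smaller shares in both Krt6a+ libraries than in any WAP+ library, and Myl9 was listed at 0 in both Krt6a+ libraries.

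The promoters of Acta2 and Myl9 carry CArG-like elements. They are shown because both genes are SRF targets, Acta2 was lower in the Krt6a+ libraries and Myl9 was listed at 0 there. RefSeq promoters (GRCm38.p6) were searched over 250 bases before the start, on both strands, for the CArG box with at most 1 mismatch in its A/T core. Of 7 members with a promoter entry, Acta2 and Myl9 held such elements, and Mylk, Cnn1, Tpm1, Tpm2 and Oxtr held none in this window. Tagln, Actg2 and Myh11 had no entry and were not searched, although Tagln and Myh11 were also lower in both Krt6a+ libraries. Among 32817 promoters of that length, 8.60% held a match with at most 1 core mismatch and 1.47% an exact one. Each line below gives 30 bases, 5′ to 3′ along the gene's strand, with the element in capitals. The Acta2 elements lie 84 bases (chr19:34255438-34255467, minus strand) and 34 bases (chr19:34255388-34255417, minus strand) before the start, each with 1 mismatch. The Myl9 elements lie 161 bases (chr2:156775293-156775322, plus strand) and 99 bases (chr2:156775355-156775384, plus strand) before it, the first with an exact core and the second with 1 mismatch.
Acta2, 84 bases before the start: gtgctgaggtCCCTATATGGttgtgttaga
Acta2, 34 bases before the start: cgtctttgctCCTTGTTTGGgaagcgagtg
Myl9, 161 bases before the start: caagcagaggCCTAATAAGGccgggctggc
Myl9, 99 bases before the start: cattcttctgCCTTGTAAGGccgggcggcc
A match is a description of letters, and no binding was measured.

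Tpm1, which encodes alpha-tropomyosin, ran the other way from the actin, transgelin and myosin members. It lies on the minus strand of chromosome 9 (chr9:67022593-67049213). Its FPKM, summed over 10 transcripts, was 999 and 719 in Krt6a+ libraries 2 and 3 against 235, 106 and 237 in WAP+ libraries 1, 2 and 3. Both Krt6a+ libraries lay above every WAP+ library, and Tpm1 was the highest of the 10 members per length in all 5. Scaled FPKM averaged 829 ± 270 (SD, n = 2) in Krt6a+ against 198 ± 77.8 (SD, n = 3) in WAP+. The log2 difference was 2.10 ± 0.45, 4.29-fold higher, and did not pass (limma adjusted p = 0.0783), although quantile normalization brought the adjusted p to 0.0456. Tpm1 made 90.4% and 79.2% of the FPKM of the 4 tropomyosin genes in the Krt6a+ libraries against 44.4%, 39.0% and 54.6% in the WAP+ libraries.

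The Tpm1 transcripts that carried this signal did not hold the smooth muscle exon. Tpm1 uses either exon 2a, typical of smooth muscle, or exon 2b in its long transcripts, which begin with exon 1a, and it also makes short transcripts from an internal promoter with exon 1b and no exon 2. Exon 2a (GRCm38, chr9:67048124-67048249, minus strand) and exon 2b (chr9:67047786-67047911, minus strand) are each 126 bases long and coding. They share 60 bases (47.6%) and differ at the 66 positions in capitals, so reads that lie inside exon 2 can tell them apart. Both are read 5′ to 3′ along the gene.
Tpm1 exon 2a: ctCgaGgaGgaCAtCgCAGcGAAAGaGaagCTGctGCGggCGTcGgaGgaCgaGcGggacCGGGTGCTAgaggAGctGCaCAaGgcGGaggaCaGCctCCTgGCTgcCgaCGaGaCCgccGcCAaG
Tpm1 exon 2b: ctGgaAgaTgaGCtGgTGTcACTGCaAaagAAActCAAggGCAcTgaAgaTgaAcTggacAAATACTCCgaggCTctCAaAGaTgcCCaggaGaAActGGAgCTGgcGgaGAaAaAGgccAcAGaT

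The single transcript in the tables with exon 2a, NM_001164249, was listed at 0 in all 5 libraries, with upper 95% bounds of FPKM 0.276 to 0.392. The exon 2b transcript NM_001164250, of the same length of 1702 bases, had FPKM 407 and 423 in Krt6a+ against 161, 44.6 and 112 in WAP+. Another exon 2b transcript with a different 3′ end, NM_001164251, had FPKM 592 and 206 in Krt6a+ and was listed at 0 in all 3 WAP+ libraries, with upper bounds up to 0.553. NM_001164248 shares its exons 1a and 2b, its 3′ end and its length of 1210 bases, but differs at exon 6. That transcript had FPKM 65.5 in WAP+ library 3 and was listed at 0 in the other libraries. All transcripts with this 3′ end made 59.3% and 28.6% of Tpm1 FPKM in Krt6a+ against 31.6%, 0% and 53.0% in WAP+ libraries 1, 2 and 3. Transcripts that begin with exon 1a made 100% and 87.5% of Tpm1 FPKM in Krt6a+ against 68.4%, 53.1% and 74.7% in WAP+. The short exon 1b transcripts were listed at 0 in Krt6a+ library 2 and had FPKM 90.0 in Krt6a+ library 3 and 74.4, 49.7 and 60.1 in the WAP+ libraries. Their level in Krt6a+ library 3 was therefore above all 3 WAP+ libraries, while the long transcripts were higher in both Krt6a+ libraries. These splits are the authors' estimates from overlapping transcripts, and a transcript listed at 0 beside a near copy can be an outcome of that estimation.

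**Figure D3:**
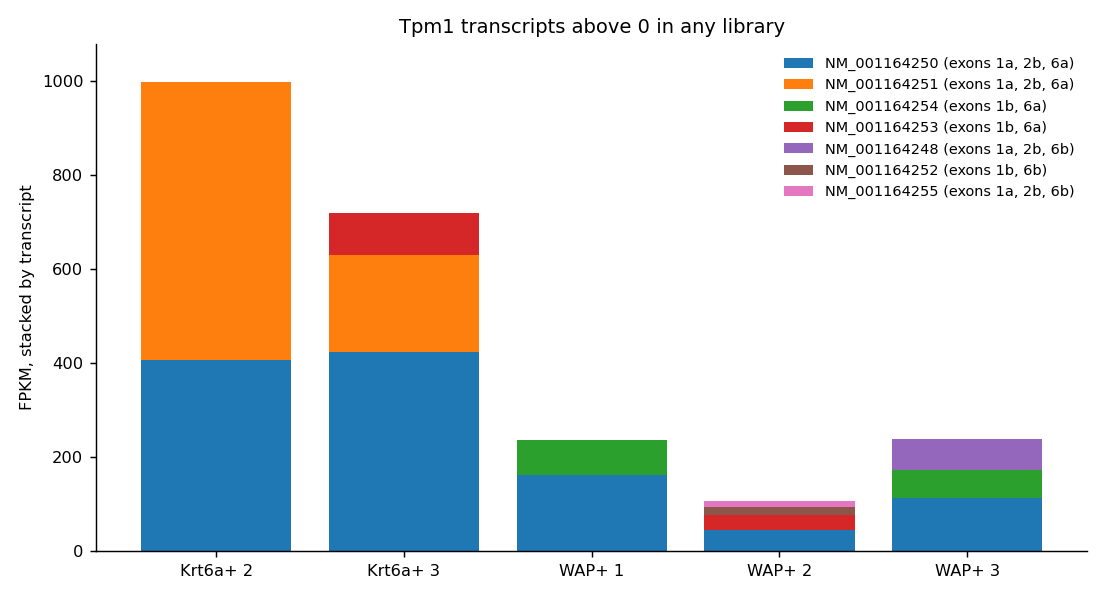
Stacked FPKM of the 7 Tpm1 transcripts above 0 in any library (vertical axis from 0), one bar for each of Krt6a+ libraries 2 and 3 and WAP+ libraries 1 to 3. The transcripts of exon 1a and 2b fill most of each bar. NM_001164251 appears only in the Krt6a+ bars, and NM_001164248, of the same 3′ end, only in the bar of WAP+ library 3. The exon 2a transcript is absent because it was listed at 0 in all 5.

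Tpm2, the beta-tropomyosin of muscle and epithelial cells, lies at chr4:43513726-43523554. It had FPKM 5.11 and 41.9 in the Krt6a+ libraries against 15.5, 13.8 and 17.1 in the WAP+ libraries. The Krt6a+ libraries fell on either side of all the WAP+ ones, with scaled means of 21.2 ± 22.6 (SD, n = 2) beside 16.1 ± 3.06 (SD, n = 3). The log2 difference was -0.14 ± 0.76 (limma adjusted p = 0.956), and it was 1.17 without Krt6a+ library 2 and -1.44 without Krt6a+ library 3 (adjusted p = 0.387 and 0.271). No direction can be given for Tpm2. Tpm4, a non-muscle tropomyosin, had FPKM 40.2 and 98.4 in Krt6a+ against 205, 89.8 and 103 in WAP+ (log2 difference -1.08, adjusted p = 0.291), and its difference was -0.54 without Krt6a+ library 2 and -1.61 without Krt6a+ library 3.

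Oxtr, the oxytocin receptor that starts contraction (chr6:112473684-112489808), had a value above 0 in Krt6a+ library 2 alone. It had FPKM 0.262 (95% bounds 0.0927 to 0.430) there and was listed at 0 in Krt6a+ library 3 and all WAP+ libraries. Those zeros had 95% bounds of 0 and can be failed estimates. Of 24 other genes that carry the oxytocin and calcium signal, 17 were tested and 0 passed in either direction, with 7 positive and 10 negative differences. Their median log2 difference was -0.18, beside -0.01 over all tested genes. The median ran from -0.40 to 0.15 over the alternative settings. Orai1, a calcium entry channel, had the lowest p of the list, with FPKM 3.76 and 9.47 in Krt6a+ against 37.6, 22.9 and 25.0 in WAP+ (log2 difference -2.14 ± 0.51, adjusted p = 0.0982). Its partner Stim1, the calcium sensor of internal stores, had FPKM 4.90 and 12.2 in Krt6a+ against 1.98, 0.819 and 0 in WAP+ (2.28 ± 0.74, adjusted p = 0.172). Calm2, which encodes calmodulin, had FPKM 107 and 170 against 351, 317 and 199 (adjusted p = 0.164).

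Within the WAP+ libraries the members fell into tiers. Tpm1 led at a scaled FPKM of 198 ± 77.8, followed by Tagln at 21.0 ± 1.36, Acta2 at 19.4 ± 9.15, Tpm2 at 16.1 ± 3.06 and Myl9 at 11.7 ± 8.33 (SD, n = 3 each). Neighbours among these last 4 differed by less than the larger SD of the pair, so the order among them is not resolved. Actg2, above 0 in WAP+ library 3 alone, was not placed in the order. Cnn1 was at 1.91 ± 1.57, Myh11 at 0.958 ± 0.412 and Mylk at 0.361 ± 0.289. In the Krt6a+ libraries Tpm1 and Tpm2 were the only members at FPKM 1 or more, apart from Tagln in library 3.

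**Figure D4:**
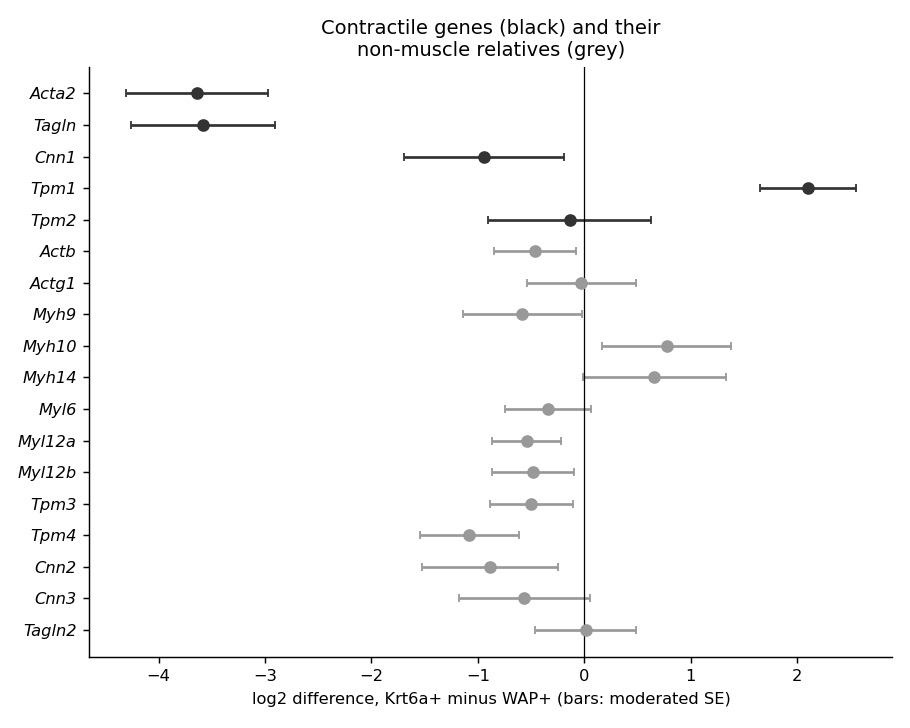
Log2 difference, Krt6a+ minus WAP+, of log2(scaled FPKM + 1) with its moderated SE, for 5 tested members (black) and 13 tested relatives (grey). Myl9 is left out because it was listed at 0 in Krt6a+. Acta2 (-3.64), Tagln (-3.58) and Tpm1 (2.10) lie outside the band of the relatives, which run from -1.08 to 0.77.

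Of 19 non-muscle and striated relatives of the members, 13 were tested and 0 passed, with 3 positive and 10 negative differences. Their median was -0.48 (-0.57 to -0.11 over the alternative settings), beside -0.01 over all tested genes. Of 24 contractile partners, 15 were tested and 0 passed, with 10 positive and 5 negative differences and a median of 0.30 (-0.13 to 0.90 over the alternative settings). Csrp2, a LIM protein of smooth muscle, had FPKM 70.5 and 18.7 in Krt6a+ against 6.68, 0.236 and 6.86 in WAP+ (log2 difference 3.08 ± 0.99, limma adjusted p = 0.172). Tgfb1i1 (Hic-5), a focal adhesion adaptor, had FPKM 8.15 and 8.66 against 0.535, 1.29 and 1.26 (2.13 ± 0.65, adjusted p = 0.154). Smtn, the smooth muscle protein smoothelin, had FPKM 19.2 and 45.3 against 14.4, 7.13 and 15.8 (adjusted p = 0.347). Vcl, the adhesion protein vinculin, was lower in both Krt6a+ libraries, at FPKM 8.95 and 22.0 against 33.7, 29.0 and 30.5 (adjusted p = 0.258). The partners with the lowest p values thus lay in both directions.

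The regulators of the contractile genes were also tested. Of 11 SRF and myocardin family regulators, 8 were tested, with 0 past the threshold and 4 positive and 4 negative differences. Their median was 0.05 (-0.41 to 0.82 over the alternative settings). Srf itself had FPKM 3.44 and 11.0 in Krt6a+ against 7.36, 3.56 and 4.56 in WAP+ (limma adjusted p = 0.923). Myocd, the coactivator myocardin of smooth muscle, was listed at 0 in 4 libraries and had FPKM 0.0974 in WAP+ library 1. The related coactivator Mkl1 had FPKM 5.90 and 18.6 against 3.75, 3.99 and 6.52 (log2 difference 0.93, adjusted p = 0.516), with a difference of 0.28 without Krt6a+ library 3 and 3.15 with the highest row per symbol. Wwtr1 (TAZ), a coactivator of TEAD factors, had FPKM 35.3 and 69.4 against 31.7, 20.5 and 15.3 (1.05 ± 0.46, adjusted p = 0.296), and the difference was 0.68 without Krt6a+ library 3. Elk4, a partner factor of SRF, had FPKM 1.53 and 3.44 against 0.748, 0.166 and 0.304 (1.22 ± 0.58, adjusted p = 0.334).

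Of 20 genes of basal and myoepithelial identity, 19 were tested and 1 passed: Krt5 was higher in Krt6a+. It had FPKM 434 and 374 in Krt6a+ against 22.4, 13.4 and 34.7 in WAP+ (log2 difference 4.02 ± 0.49, limma adjusted p = 0.0275), and without WAP+ library 1, 2 or 3 its adjusted p was 0.133, 0.150 and 0.0557. It was also lost with no level filter (adjusted p = 0.116), with no variance trend (0.0553) and with the replicate number as a block (0.0614). Krt14 had FPKM 2284 and 2263 in Krt6a+ against 936, 130 and 862 in WAP+ (adjusted p = 0.209). Krt17, another keratin of basal cells, overlapped between the populations, with FPKM 207 and 692 against 331, 55.0 and 205 (adjusted p = 0.464). The list had 11 positive and 8 negative differences and a median of 0.49 (0.034 to 0.63 over the alternative settings, the lowest with the highest row per symbol). Trp63, the basal transcription factor p63, had FPKM 5.22 and 12.9 against 0.115, 1.65 and 1.99 (adjusted p = 0.228). Igfbp5, a secreted growth factor binding protein, had FPKM 1.65 and 1.28 against 11.1, 19.5 and 10.1 (adjusted p = 0.0991).

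For each 1000 FPKM of Krt14, Acta2 had 0.288 and 0.176 FPKM in the Krt6a+ libraries against 25.3, 193 and 9.69 in the WAP+ libraries. For each 1000 FPKM of Krt5 the Acta2 values were 1.51 and 1.07 in Krt6a+ against 1058, 1873 and 241 in WAP+. The mean log2 ratio of Acta2 to Krt14 differed by -7.33 between the populations (pooled SD 1.82) and that to Krt5 by -9.27 (pooled SD 1.26). These ratios were not tested. In every Krt6a+ library, basal keratin message was abundant while smooth muscle actin message was under FPKM 1.

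**Figure D5:**
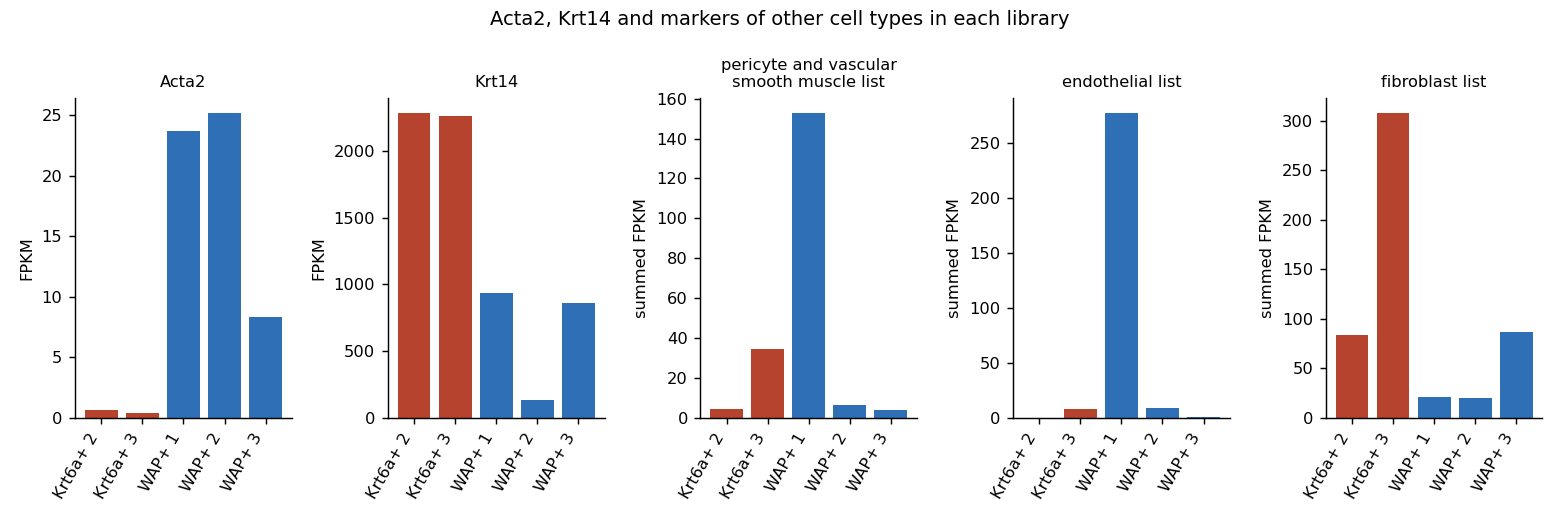
FPKM of Acta2 and Krt14 and summed FPKM of the pericyte and vascular smooth muscle, endothelial and fibroblast marker lists (vertical axes) in Krt6a+ libraries (red) and WAP+ libraries (blue). WAP+ library 1 is highest in the pericyte and endothelial panels, whose lists share Esam, and Krt6a+ library 3 in the fibroblast panel. Acta2 is above both Krt6a+ libraries in all 3 WAP+ libraries.

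Other cells make Acta2, Tagln and Myl9, among them pericytes, vascular smooth muscle and myofibroblasts. The summed FPKM of 12 pericyte and vascular smooth muscle markers was 4.55 and 34.3 in the Krt6a+ libraries against 153, 6.64 and 4.01 in the WAP+ libraries, with Rgs5 and Higd1b listed at 0 in all 5. In WAP+ library 1 it came mostly from Esam (112), Gja4 (24.7) and Kcnj8 (9.90), and in Krt6a+ library 3 from Ndufa4l2 (31.8). Beside these sums, Acta2 had FPKM 0.658 and 0.398 in Krt6a+ against 23.7, 25.2 and 8.36 in WAP+. Tagln had 0 and 2.65 against 24.0, 20.3 and 17.1. Myl9 was listed at 0 in both Krt6a+ libraries against 3.49, 11.1 and 17.2. The part of these cells in the levels of the members was not tested. The sum of 10 endothelial markers was 0.0902 and 7.63 in Krt6a+ against 277, 9.18 and 0.288 in WAP+, highest again in WAP+ library 1. Esam (112 there) is on both the pericyte and the endothelial list, so the sums are not independent. Without WAP+ library 1 the log2 differences were -3.52 for Acta2, -3.56 for Tagln and 2.16 for Tpm1 (limma adjusted p = 0.167, 0.169 and 0.182). The part of endothelial cells in the levels of the members was not tested either.

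The sum of 12 fibroblast and myofibroblast markers was 83.5 and 308 in Krt6a+ against 21.2, 19.5 and 86.7 in WAP+, mostly from Dcn and Postn, and Fap and Thy1 were listed at 0 in all 5 libraries. Of its 7 tested genes 0 passed, with 6 positive and 1 negative difference. The part of fibroblasts in the levels of the members was not tested. The sum of 8 adipocyte markers was 0 and 1.01 in Krt6a+ against 2195, 70.8 and 24.0 in WAP+, nearly all from Fabp4, and Adipoq and Plin1 were listed at 0 in all 5. The 10 leukocyte markers summed to 6.49 and 21.4 in Krt6a+ against 10.1, 26.4 and 19.5 in WAP+, mostly Cd68, with Ptprc at 0 throughout. Fabp4 and Lipe were lower in both Krt6a+ libraries (adjusted p = 0.0791 and 0.153), the other 6 adipocyte markers were listed at 0 in all 5, and their part in the Acta2 values was not tested. Among 10 tested luminal genes of 14, 0 passed and 7 were negative, with Krt18 at FPKM 353 and 1283 in Krt6a+ against 4018, 3335 and 3534 in WAP+ (adjusted p = 0.0607), and their part was not tested either.

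Likeness of pattern over the 5 libraries was measured as the root mean square difference of log2(scaled FPKM + 1) after each gene was centred on its mean, so that a low value means a like pattern. Between tested members it ran from 0.77 (Acta2 and Tagln) to 2.94 (Acta2 and Tpm1), and Myl9 lay 0.97 from Tagln, 1.10 from Acta2 and 1.24 from Cnn1. The tested genes nearest to Acta2 were Gm266 (0.32), Ldhb (0.34), Tgm2 (0.34), Foxi1 (0.38) and Hhipl2 (0.41). Those nearest to Tagln were Cd59a (0.24), Ndufab1 (0.32), Mrpl9 (0.36), Prdx4 (0.37) and Isy1 (0.39). None of these 10 is on any contractile list used here. Ldhb, a lactate dehydrogenase subunit, had FPKM 8.47 and 6.31 in Krt6a+ against 89.0, 80.5 and 48.1 in WAP+. Tgm2, tissue transglutaminase, had FPKM 0.0724 and 0 in Krt6a+ against 22.6, 14.4 and 9.22 in WAP+. The likeness rests on 5 libraries from 2 populations and is a description.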

How the data were processed

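RNA-seq was made from sorted pools of cells with SMART-Seq v4 and Nextera kits and paired reads on a HiSeq, per the labels' protocols. These kits do not mark the strand, so overlapping antisense genes cannot be told apart. TopHat and Cufflinks were used on mm10, per the submitters' processing notes, with versions not given in the sources used here. The authors deposited FPKM for 34535 RefSeq transcripts with lower and upper 95% bounds, which cover estimation within a library only. The deposited coverage signal was not used.

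FPKM was summed by symbol and divided by a factor for each library, its median ratio to geometric means of the 5334 genes that reached FPKM 1 in every library (0.980 and 1.13 for Krt6a+, 1.14, 0.909 and 0.873 for WAP+). Tested genes had to reach FPKM 1 in at least 2 libraries. Values of log2(scaled FPKM + 1) were fitted with limma 3.58.1 under R 4.3.3 (two-sided; eBayes with trend, 3 residual and 4.87 prior df), and p-values were adjusted by Benjamini-Hochberg over 9682 genes and a threshold of 0.05. Separate animals are not stated for the libraries, so p-values measure the spread between these samples alone, and that spread may be technical. Libraries of 9130 to 9165 genes were simulated for the Krt6a+ against WAP+ comparison. The changed genes were drawn from those with a mean log2(FPKM + 1) above 4. The fit recovered 0% of genes changed 4-fold, 82% changed 16-fold and 91.5% changed 64-fold. At 16-fold, 9 of 173 calls were false, and at 64-fold 7 of 190. Acta2, Tagln, Myl9 and Cnn1 lie under that level, so these rates do not cover them.

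Members, gene lists and motif search were chosen with earlier results of these data known. Genes named beside the members are Krt6a, Wap, Krt5, Krt14, Trp63 and Krt8, list members past the threshold, up to 4 per list with the largest moderated statistic, the 3 highest of each other cell type, and the 5 genes nearest to Acta2 and to Tagln. Family relatives, Krt17, Srf, Myocd, Smtn, Calm2 and markers listed at 0 were also named after their values were seen. Alternatives covered the pseudocount, filter, scaling, variance trend, transcript choice, zeros, a replicate block and each library left out. Promoter elements are from RefSeq, and Tpm1 exons from GENCODE M21 and RefSeq.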

Additional observations from a re-analysis of the deposited data

How the results depend on the processing

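With 2 and 3 libraries of amplified cDNA, low members were near what could be detected. Acta2, Tagln and Myl9 stayed negative, and Tpm1 positive, under every alternative that could be fitted. The sign for Myl9 rests on Krt6a+ values listed at 0. Acta2 (-3.64) passed with a stricter filter (FPKM 5, adjusted p = 0.0417) and with zeros as missing values (adjusted p = 0.0315). Tagln passed with the stricter filter (-3.58, adjusted p = 0.0417). Acta2 and Tagln met that filter through the WAP+ libraries alone. Tpm1 passed with quantile normalization (2.67) and with zeros as missing values (2.10, adjusted p = 0.0474). Leaving out a library in turn gave -4.10 to -3.38 for Acta2, -4.41 to -2.71 for Tagln, -1.53 to -0.55 for Cnn1, 1.73 to 2.45 for Tpm1 and -1.44 to 1.17 for Tpm2. Pseudocounts of 0.1 and 5 gave -4.91 and -2.07 for Acta2, -5.41 and -2.10 for Tagln, 3.71 and 1.11 for Stim1 and 2.32 and 0.43 for Elk4, and 5 gave 1.09 for Tgfb1i1. Wwtr1 was 2.49 with the highest row per symbol, and Myl12a -0.14 with quantile normalization. A lone Krt6a+ library was then assumed to vary like the others. Tpm2 turned to 0.20 with the highest row per symbol (adjusted p = 0.939). Cnn2 (-0.89) ran from -1.83 to 0.065 with libraries left out, the highest without Krt6a+ library 3. Members called higher (0) came to 1 with quantile normalization and with zeros as missing values, and members called lower (0) to 2 with the stricter filter, 1 with zeros as missing values and 0 to 1 with libraries left out. Calls over all genes were 25 higher and 42 lower. Higher calls were 6 with a pseudocount of 0.1, 41 with 5, 2 without a filter, 71 with the stricter filter, 39 with quantile normalization, 7 without the trend, 8 with the highest row, 78 with zeros as missing values and 2 to 44 with libraries left out. Lower calls were 20 with a pseudocount of 0.1, 3 without a filter, 92 with the stricter filter, 27 without scaling, 9 without the trend, 16 with the highest row, 71 with zeros as missing values and 3 to 103 with libraries left out. Over the related lists, the 1 higher call, Krt5, came to 0 without a filter and without the trend and 0 to 1 with libraries left out, and lower calls (0) to 1 with the stricter filter, 1 with zeros as missing values and 0 to 2 with libraries left out. Beyond fewer genes or samples, the cause was not tested. Cnn1 could not be fitted under the stricter filter or without WAP+ library 2 or 3, nor Myl9 with zeros as missing values. No size is given for Myl9, which was listed at 0 in Krt6a+.

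The populations share replicate numbers 2 and 3, and deviations of same-numbered libraries correlated at 0.050 and 0.00027. With 2 Krt6a+ libraries, the deviations of each mirror those of the other. The correlations therefore cannot decide whether the numbers pair the libraries. With the replicate block, the log2 differences were -3.53 for Acta2, -3.58 for Tagln, -1.55 for Cnn1, 2.17 for Tpm1 and -0.24 for Tpm2, with 15 higher and 19 lower calls over all genes, 0 higher and 1 lower over the related lists, and Cldn5 at 1.25 (-0.96 without the block, -2.15 to 0.45 with libraries left out, the highest without Krt6a+ library 2).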
